A study of Homo sapiens with 6 samples.

Results

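Genes named LINC and a number are long noncoding RNA genes that lie, at least in part, between protein-coding genes and that had no functional name when they were catalogued. Described here are the 110 rows of the deposited count table whose name is LINC followed by 5 digits and whose counts, summed over the 6 libraries, reached 200, out of 61228 gene names in the table. The table holds 2264 rows with such a name. Of these, 1463 had no count in any library, 691 had at least 1 but fewer than 200 counts, and the 110 members carried 89.6% of all counts on such rows. The members were chosen by their summed count, so their detection is a description. The rule did not use the difference between the groups, but a row near the minimum can reach it through the group where it is higher. All 110 passed the filter on low counts and were tested.

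The 3 KO libraries came from MDA-MB-231 cells, a mesenchymal-like, triple-negative breast cancer line, labelled as knocked out for ETV1, ETV4 and ETV5 after nucleofection of Cas9 with guides against those genes. The 3 control libraries came from MDA-MB-231 cells nucleofected with Cas9 and a control guide. Cells of both groups were grown in 3D collagen I gels and released with collagenase, and polyadenylated RNA was sequenced, so transcripts without a poly(A) tail are poorly covered in both. The sample titles name ETV4 alone, the KO library names carry the tag c39 without saying whether it is 1 clone, 2 collagen concentrations are given without a link to samples, and nothing says that replicates were separate cultures, so p-values measure the spread between these libraries.

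Total counts were 18042601 to 19250921 per KO library and 18806653 to 23232770 per control library, and 3 counts, taken as the detection floor, correspond to 0.128 to 0.165 CPM (counts per 1e6 counts, scaled with TMM factors). ETV1 had 134.6, 137.4 and 155.0 CPM in KO libraries, against 218.0, 212.9 and 238.4 CPM in control libraries (adjusted p = 0.00125), and ETV4 averaged 63.7 ± 2.03 CPM in KO and 93.9 ± 2.11 CPM in control libraries (SD, n = 3 each; adjusted p = 6.12e-04). ETV5 averaged 113.1 ± 1.23 CPM in KO and 112.2 ± 4.77 CPM in control libraries. Messenger RNA need not fall after a Cas9 cut, so these levels check the label only in part. Of 5 genes taken here as high in MDA-MB-231 cells, VIM, CD44, AXL and MSN were abundant. SPARC, also on that list, was at or below 0.51 CPM in every library. Of 5 genes taken as low in them, ESR1, PGR and CDH1 were at or near 0 and ERBB2 and EPCAM were not. ERBB2 had 54.5 to 57.4 CPM in KO and 58.1 to 65.0 CPM in control libraries, and EPCAM 18.8 to 22.5 CPM in KO and 17.3 to 21.8 CPM in control libraries. Libraries numbered 3 stood apart from those numbered 1 and 2 in both groups, and the numbers of calls are given with and without them.

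Long noncoding RNAs are transcribed by RNA polymerase II, are often spliced and polyadenylated like messenger RNAs, and are usually less abundant and more restricted to particular cell types. Some act on the gene next to them, some bind proteins or other RNAs elsewhere in the cell, a few encode short peptides, and for most no function is established. ETV1, ETV4 and ETV5 form the PEA3 group of ETS transcription factors, which bind DNA around a GGAA core and act downstream of growth factor and MAP kinase signalling.

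In KO cells, 9 of the 110 LINC transcripts passed the test, 2 higher and 7 lower than in control cells. LINC03033 and LINC00472 rose, and LINC00963, LINC02582, LINC03009, LINC01478, LINC01270, LINC01139 and LINC01588 fell. The 9 members are 8.18% of the set, beside 9.7% of all 14704 genes tested, of which 3.28% were called higher and 6.42% lower, so the set was called at about the rate of the whole table. Among the 12482 tested genes that also reached 200 counts, the share was 10.9%. Fold changes of the members ran from -1.11 to 0.70 on the log2 scale, with a median of -0.04 beside 0.00 over all genes, and 46 members had a positive and 64 a negative value. The median absolute log2 fold change was 0.20 in the members and 0.15 over all genes, not matched for depth.

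Promoter windows show what stands at the start of some of these genes. RefSeq windows (GRCh38.p14, 250 bases before to 50 after a start) existed for 81 members, 100 windows in all, of which 7 windows belong to 6 of the 9 called members. They are printed for the called members LINC03009 and LINC01270, whose windows hold an ETS match, for LINC00963, whose window holds an AP-1 match, for LINC00472 and LINC03033, the transcripts that rose, whose windows hold none of the motifs searched, and for LINC00667, an abundant member that shares its ETS match with a LINC gene on the other strand. Each runs 5′ to 3′ on the gene's strand. Capitals mark a match to the ETS motif CCGGAAG or to the AP-1 motif TGANTCA on either strand.
LINC03009, chr7:76549091-76549390, plus strand: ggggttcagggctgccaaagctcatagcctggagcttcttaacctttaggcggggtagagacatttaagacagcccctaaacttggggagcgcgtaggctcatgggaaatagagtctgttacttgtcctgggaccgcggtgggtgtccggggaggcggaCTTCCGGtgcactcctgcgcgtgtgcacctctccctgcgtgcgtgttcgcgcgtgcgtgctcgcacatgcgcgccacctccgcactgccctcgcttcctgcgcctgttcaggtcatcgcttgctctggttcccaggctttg
LINC01270, chr20:50292470-50292769, plus strand: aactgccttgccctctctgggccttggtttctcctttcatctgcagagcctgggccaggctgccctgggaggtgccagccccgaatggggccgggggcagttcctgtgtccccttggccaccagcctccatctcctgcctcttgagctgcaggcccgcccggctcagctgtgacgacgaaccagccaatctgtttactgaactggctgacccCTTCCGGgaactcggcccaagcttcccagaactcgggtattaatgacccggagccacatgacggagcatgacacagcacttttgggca
LINC00667, chr18:5237850-5238149, plus strand: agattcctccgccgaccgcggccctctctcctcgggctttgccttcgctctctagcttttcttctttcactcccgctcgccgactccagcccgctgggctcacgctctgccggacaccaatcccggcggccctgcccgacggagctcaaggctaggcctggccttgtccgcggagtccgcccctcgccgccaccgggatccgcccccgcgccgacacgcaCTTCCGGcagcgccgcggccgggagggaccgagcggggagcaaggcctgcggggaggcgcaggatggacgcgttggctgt
LINC00963, chr9:129488410-129488709, plus strand: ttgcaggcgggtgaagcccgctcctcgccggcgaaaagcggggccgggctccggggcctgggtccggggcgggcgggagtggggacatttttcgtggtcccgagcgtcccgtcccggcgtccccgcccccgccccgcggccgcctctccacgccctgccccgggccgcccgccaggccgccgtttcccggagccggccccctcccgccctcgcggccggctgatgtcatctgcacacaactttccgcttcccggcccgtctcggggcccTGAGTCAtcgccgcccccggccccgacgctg
LINC00472, chr6:71420696-71420995, minus strand: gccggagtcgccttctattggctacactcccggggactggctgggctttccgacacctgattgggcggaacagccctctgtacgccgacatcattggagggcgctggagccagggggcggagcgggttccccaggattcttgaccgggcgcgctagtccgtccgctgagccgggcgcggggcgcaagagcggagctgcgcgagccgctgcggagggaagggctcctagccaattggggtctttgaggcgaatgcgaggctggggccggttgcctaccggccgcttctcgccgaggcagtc
LINC03033, chr14:61570290-61570589, plus strand: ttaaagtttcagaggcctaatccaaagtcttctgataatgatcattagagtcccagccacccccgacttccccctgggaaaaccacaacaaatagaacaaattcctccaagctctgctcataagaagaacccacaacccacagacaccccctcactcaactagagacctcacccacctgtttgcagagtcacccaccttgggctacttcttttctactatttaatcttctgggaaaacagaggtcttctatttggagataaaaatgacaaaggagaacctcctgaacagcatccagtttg

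The ETS match CTTCCGG began 91 bases before the start of LINC03009, 38 bases before that of LINC01270 and 30 bases before that of LINC00667. The AP-1 match TGAGTCA began 19 bases past the start of LINC00963. Over all 100 member windows, 15% held the ETS letters, 16% the AP-1 letters, 28.0% the hypoxia response element ACGTG, 6.0% the E2F letters TTCCCGC and 15% the TATA box TATAAA, each on either strand. Over all 35116 RefSeq windows of the same length the shares were 10.3%, 7.71%, 21.4%, 6.55% and 11.5% in the same order. GC content had a median of 59.3% in member windows and 58.7% in all windows. The LINC01588 gene has a pair of windows, and the hypoxia response element and the TATA letters stood in the same one of them. No window was held for LINC02582, LINC01139 or LINC01478.

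LINC00963 (chr9:129488660-129513686, plus strand), also called MetaLnc9 and studied in prostate and lung cancer as a transcript that favours growth and spread, had the smallest adjusted p of the set. It had 7.87, 7.22 and 8.20 CPM in KO libraries, against 12.9, 11.4 and 12.4 CPM in control libraries, and the groups did not overlap. The log2 fold change was -0.65 (SE 0.11, adjusted p = 0.0069). The call held in each of the 6 fits that left out a library, with adjusted p between 0.00867 and 0.0419.

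LINC02582 (chr18:73324941-73349889, plus strand), described in breast cancer cells as acting downstream of the microRNA miR-200c in resistance to radiation, was the most abundant member. It had 141, 142 and 173 CPM in KO libraries, against 217, 219 and 266 CPM in control libraries, with the library numbered 3 highest in each group. Its log2 fold change was -0.63 (SE 0.11, adjusted p = 0.00844). Leaving out KO replicate 2 ended the call (0.0513; range over the 6 libraries left out 0.00241 to 0.0513). LINC02864, on the opposite strand 60.4 kb away, had 32.6, 29.3 and 32.6 CPM in KO libraries, against 35.5, 39.4 and 39.3 CPM in control libraries. Its groups did not overlap either, but its log2 fold change of -0.27 (SE 0.08) did not pass the test (adjusted p = 0.0617), and passed it with the replicate block (7.90e-04).

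LINC03033 (chr14:61570540-61654713, plus strand), also called LncRNA-CAF and described in fibroblasts around oral tumours, had the largest increase. It had 13.8, 13.2 and 18.1 CPM in KO libraries, against 9.64, 8.57 and 9.44 CPM in control libraries. The KO library numbered 3 was the highest of all, and the others also lay above every control library. KO over control came to 0.70 on the log2 scale (SE 0.14, adjusted p = 0.0147). Leaving out control replicate 1 (0.0502) or control replicate 2 (0.0720) ended the call, with a range of 0.0138 to 0.0720 over the 6 libraries left out. Of 6 fibroblast markers, DCN, LUM, COL1A2 and PDGFRA did not exceed 0.43 CPM in any library. COL1A1 had 8.83 to 11.3 CPM in KO and 9.27 to 9.70 CPM in control libraries, and PDGFRB 2.09 to 2.65 CPM in KO and 3.53 to 3.64 CPM in control libraries. Summed, the 6 markers had 11.9 to 13.9 CPM in KO and 13.2 to 13.5 CPM in control libraries. The part of such cells in the LINC03033 result was not tested.

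LINC00472 (chr6:71407864-71420745, minus strand), also called P53RRA and known from breast tumours, where low levels go with aggressive disease, was the other member that rose. It had 60.2, 47.2 and 61.9 CPM in KO libraries, against 34.7, 40.8 and 44.3 CPM in control libraries. The lowest KO library lay just above the highest control library. On the log2 scale the difference was 0.50 (SE 0.12, adjusted p = 0.0364). The call was lost without KO replicate 1 (0.116), KO replicate 3 (0.0601), control replicate 1 (0.126) or control replicate 2 (0.11), with a range of 0.0243 to 0.126 over the 6 libraries left out, and also without both libraries numbered 3 (0.0535).

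LINC01139 (chr1:238480384-238486017, minus strand), known as LINK-A, has been described in triple-negative breast cancer as a scaffold for kinases that raise HIF1A signalling. It had 8.52, 9.97 and 10.8 CPM in KO libraries, against 12.9, 13.1 and 16.6 CPM in control libraries. All KO libraries lay below all control libraries, and the log2 fold change was -0.55 (SE 0.14, adjusted p = 0.0397). The call held only without KO replicate 3 (0.031) among the 6 libraries left out. It was lost without KO replicate 1 (0.151), KO replicate 2 (0.116), control replicate 1 (0.0748), control replicate 2 (0.0843) or control replicate 3 (0.0868).

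The remaining 4 called members, none with a role that is firmly established, were all lower in KO cells. LINC03009 (chr7:76549341-76627982) had 5.30, 5.56 and 8.81 CPM in KO libraries, against 12.9, 10.1 and 14.8 CPM in control libraries. Its log2 fold change was -0.95 (SE 0.22, adjusted p = 0.0276). It overlaps the coding gene POMZP3 on the opposite strand, and since the strand setting of the counting is not given, reads of the overlap cannot be assigned with certainty. POMZP3 itself averaged 11.6 ± 1.01 CPM in KO and 10.6 ± 1.59 CPM in control libraries (SD, n = 3 each; adjusted p = 0.628). LINC01270 (chr20:50292720-50314919, plus strand) had 1.18, 1.09 and 1.38 CPM in KO libraries, against 3.26, 1.89 and 2.72 CPM in control libraries. Its log2 fold change of -1.11 (SE 0.26, adjusted p = 0.0312) was the largest decrease of the set and rested on 236 counts in all. LINC01478 (chr18:44323435-44531697, minus strand) had 3.05, 3.63 and 4.73 CPM in KO libraries, against 6.66, 6.36 and 6.21 CPM in control libraries. The control libraries lay close together and the KO libraries did not reach them (log2 fold change -0.75, SE 0.17, adjusted p = 0.0286). LINC01588 (chr14:49981669-50007520, minus strand), once listed as C14orf182, had 7.87, 8.31 and 9.30 CPM in KO libraries, against 10.6, 12 and 12.2 CPM in control libraries (log2 fold change -0.45, SE 0.11, adjusted p = 0.0416).

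Each of these 4 calls was lost in at least 4 of the 6 fits that left out a library, and DESeq2 gave LINC01588 an adjusted p of 0.0669. Without KO replicate 1, KO replicate 2 or control replicate 1, all 4 were lost, with adjusted p between 0.0776 for LINC01588 without control replicate 1 and 0.153 for LINC01588 without KO replicate 1. Without control replicate 2, LINC01478 (0.0979) and LINC01588 (0.156) were lost. Without control replicate 3, LINC03009 (0.0625), LINC01270 (0.0635) and LINC01588 (0.0966) were lost. Without KO replicate 3 all 4 were called, with adjusted p between 0.00313 for LINC03009 and 0.0344 for LINC01588.

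**Figure D1:**
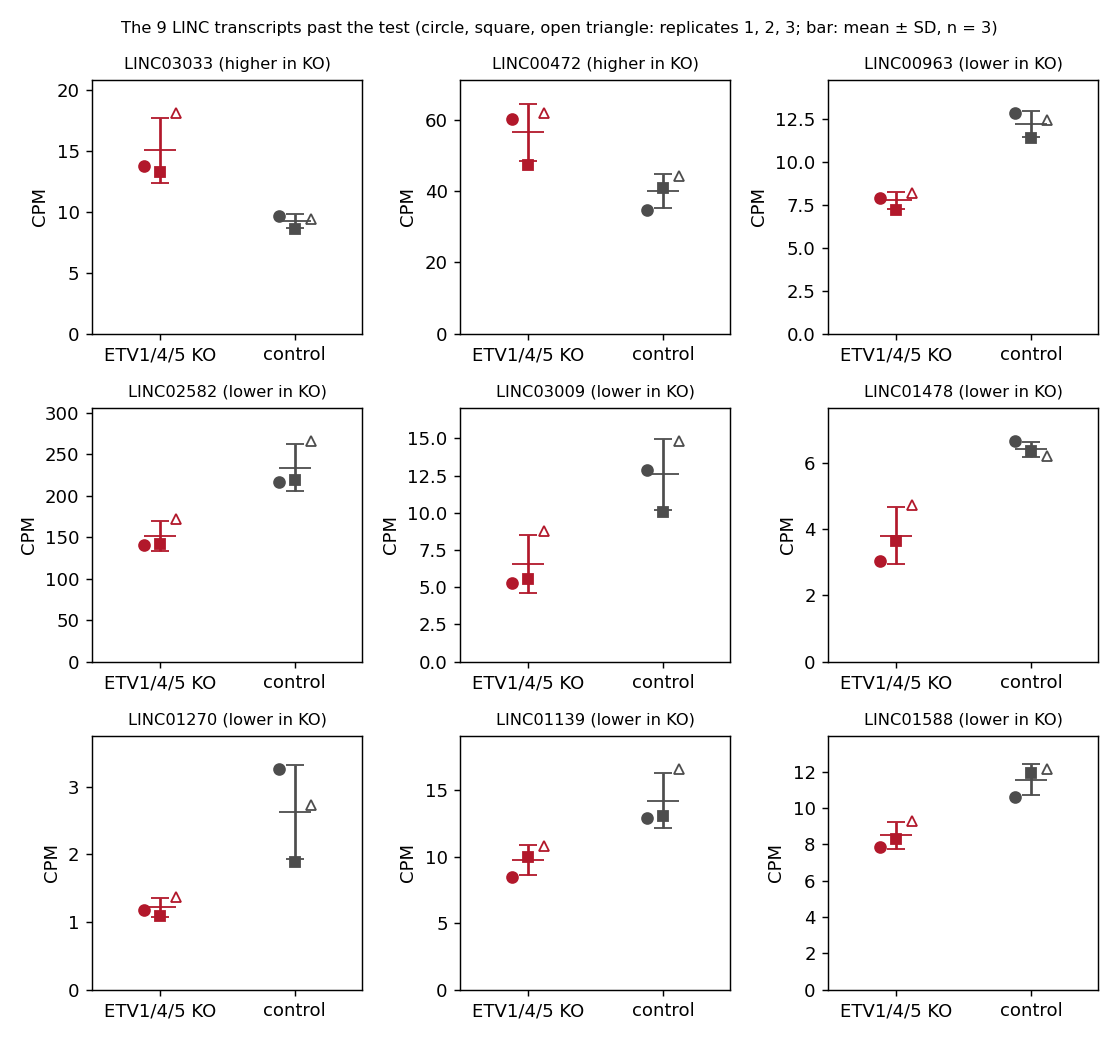
CPM (vertical axes, each from 0) of the 9 called LINC transcripts in the 3 KO libraries (left, red) and the 3 control libraries (right, grey); the marker shape gives the replicate number and bars the mean ± SD. In every panel the KO and control libraries do not overlap, from LINC02582 (141 to 173 against 217 to 266 CPM) to LINC01270 (1.09 to 1.38 against 1.89 to 3.26 CPM).

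The number of calls depended on the fit, and a block by replicate number is not given by the labels. With the replicate number as a block, 5 members were called higher and 18 lower, 20.9% of the set, beside 33.9% of all genes (17.2% higher and 16.7% lower), and all 9 members remained among them. DESeq2 called 3 members higher and 8 lower, 10.0% of the set beside 10.1% of all genes (3.89% higher and 6.24% lower). Without both libraries numbered 3, 3 members were called higher and 17 lower, 18.2% of the set beside 25.5% of all genes (11.7% higher and 13.7% lower). That fit kept 8 of the 9 calls and lost LINC00472. Leaving out single libraries kept 2 of the 9 calls without control replicate 1, 3 without KO replicate 1, 3 without KO replicate 2, 4 without control replicate 2, 5 without control replicate 3 and 8 without KO replicate 3. An unadjusted p below 0.05 was reached by 23 members, 20.9%, beside 25.4% of all genes. KO and control libraries did not overlap for 30 members, 9 higher and 21 lower in KO, 27.3% of the set beside 31.7% of all genes (14.9% higher and 16.8% lower).

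Members that missed the test in the unblocked fit but passed it both with the block and without the libraries numbered 3 numbered 8, and they were singled out after their values were seen. The share of all genes that met the same conditions was not counted. Of all genes, 33.9% were called with the block and 25.5% without the libraries numbered 3, against 9.7% in the unblocked fit. The 8 therefore cannot be read as a result about the set. Among them, LINC01128 was the member higher in KO cells, with 17.0, 16.9 and 13.5 CPM in KO libraries, against 11.1, 13.4 and 12.4 CPM in control libraries. The other 7, LINC00632, LINC00973, LINC01089, LINC01224, LINC01322, LINC02864 and LINC02970, had lower values in KO cells. LINC00632, whose locus is also the source of the circular RNA CDR1as, had 2.41, 2.39 and 2.7 CPM in KO libraries, against 3.69, 4.90 and 2.72 CPM in control libraries. The row counts the linear gene and says nothing of the circle, and its groups were barely separated. LINC01322 had 8.62, 8.20 and 11.2 CPM in KO libraries, against 12.4, 12.2 and 16.1 CPM in control libraries, so that KO libraries lay lower throughout.

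Precision followed depth. The 55 members with 200 or more but fewer than 500 counts had a median SE of 0.24 on the log2 scale, with 95% intervals that reached a median of 0.53 to either side, and 1 of them was called. The 35 members with 500 or more but fewer than 1500 counts had a median SE of 0.15 and 6 calls, and the 20 members with 1500 counts or more a median SE of 0.10 and 2 calls. All tested genes in the same ranges were called at 7.89%, 9.39% and 11.7%. Of the 101 members without a call, 92 had a 95% interval that excluded both a doubling and a halving, and 29 an interval within 0.5 on the log2 scale in either direction.

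**Figure D2:**
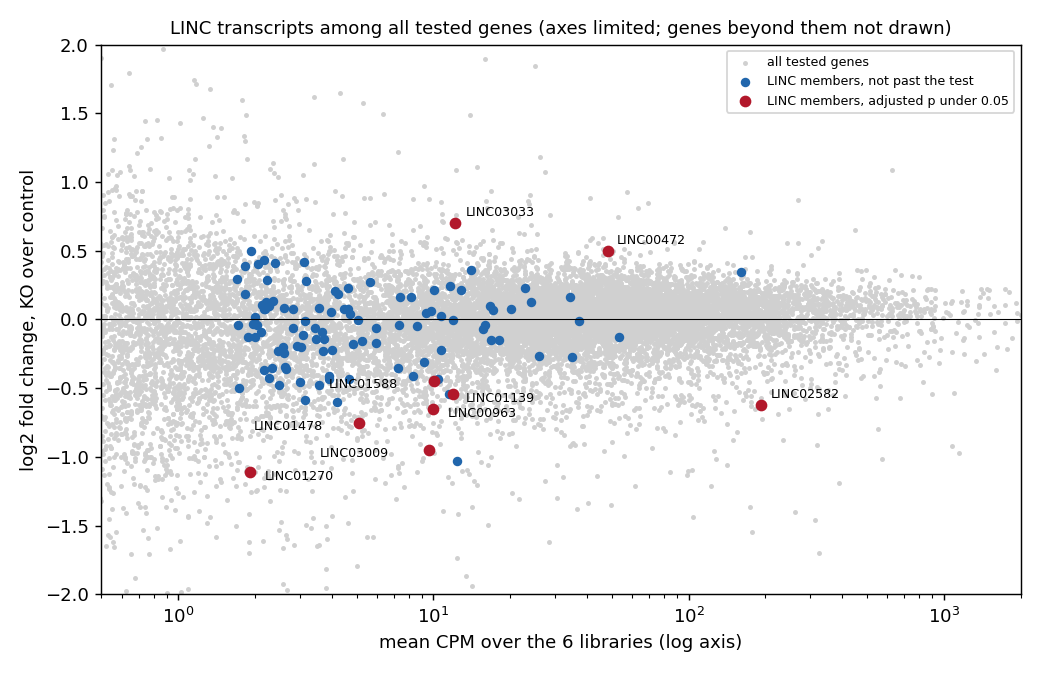
Mean CPM over the 6 libraries (horizontal, log axis) against the log2 fold change of KO over control (vertical) for all tested genes (grey), the LINC members without a call (blue) and the 9 called members (red, named). The members lie between 1.70 and 193 CPM, and apart from LINC02582 and LINC00472 the called ones average under 15 CPM.

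Per kilobase of exon (GENCODE 29 models, present for 109 members, LINC03009 not among them), the members spanned a wide range, with a median of 1.36 CPM per kb, a lowest value of 0.109 and a highest of 84.8. LINC02582 stood at 84.8 CPM per kb, followed by LINC03061 at 31.5, LINC00973 at 26.9, LINC01116 at 21.0, LINC02970 at 19.8, LINC01605 at 15.9 and LINC00472 at 14.0. Exonic length had a median of 3287 bases and ran from 375 to 28876 bases. In counts not scaled for length, the 3 most counted members held 33.5% and the 10 most counted 52.1% of all member counts, while 63 members averaged under 5 CPM. RefSeq lists 109 members, all as long noncoding RNA, and GENCODE 29 types 83 as long intergenic, 13 as processed transcripts, 5 as transcribed pseudogenes and LINC02693, then called C17orf51, as protein coding. The members lie on 21 chromosomes.

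The other abundant members showed smaller differences that did not pass the test. LINC03061 had 197, 150 and 191 CPM in KO libraries, against 144, 147 and 134 CPM in control libraries. KO replicate 2 lay close to the control libraries and the others well above (log2 fold change 0.34, SE 0.10, adjusted p = 0.0738). Its call depended on the fit: 0.0177 with DESeq2, 0.244 with the block, and 0.0132 to 0.186 over the 6 libraries left out, with a call only without KO replicate 2. LINC00973 had 24.0, 21.9 and 24.7 CPM in KO libraries, against 29.2, 29.6 and 26.0 CPM in control libraries. Its groups did not overlap (log2 fold change -0.26, SE 0.08, adjusted p = 0.0914; 0.0042 with the block). LINC00667 had 23.4, 25.5 and 25.2 CPM in KO libraries, against 21.4, 21.8 and 20.1 CPM in control libraries, again without overlap (log2 fold change 0.23, SE 0.08, adjusted p = 0.103; 0.0139 with the block). LINC02693 had 37.0, 35.0 and 36.8 CPM in KO libraries, against 30.8, 33.4 and 33.2 CPM in control libraries. Its values differed little between libraries of a group (log2 fold change 0.16, SE 0.07, adjusted p = 0.184; 0.0458 with the block).

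LINC00261, studied as DEANR1 in the differentiation of endoderm and lying beside the gene of the endodermal transcription factor FOXA2, had 52.2, 51.9 and 48.3 CPM in KO libraries, against 57.9, 55.1 and 53.7 CPM in control libraries. The groups did not overlap, and the 95% interval of its log2 fold change was -0.28 to 0.02 (adjusted p = 0.26). LINC01116, beside the HOXD genes and also called TALNEC2, had 31.3, 34.3 and 46.2 CPM in KO libraries, against 34.5, 34.4 and 43.6 CPM in control libraries. The library numbered 3 was high in both groups and the means differed by less than their SD, 37.3 ± 7.87 CPM in KO and 37.5 ± 5.30 CPM in control libraries (n = 3 each). LINC01605 showed the same, with 21.6, 23.1 and 31.2 CPM in KO libraries, against 19.6, 20.5 and 29.2 CPM in control libraries. Its groups overlapped, and its 95% interval was -0.31 to 0.56.

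Of a list of LINC genes studied in cancer, 11 were members, and LINC00963 alone among them passed the test. LINC00511, studied in breast cancer, had 17.6, 18.1 and 15.7 CPM in KO libraries, against 19.9, 19.6 and 17.4 CPM in control libraries, and the groups overlapped (95% interval of the log2 fold change -0.37 to 0.07). LINC00665, which encodes the micropeptide CIP2A-BP, had 13.6, 10.7 and 13.5 CPM in KO libraries, against 9.55, 10.8 and 11.6 CPM in control libraries (interval -0.05 to 0.53). LINC00467, which also encodes a micropeptide, had 16.5, 16.7 and 19.5 CPM in KO libraries, against 16.8, 16.7 and 16.9 CPM in control libraries. Its control libraries were nearly equal, and the interval was -0.15 to 0.28. LINC00662 had 9.64, 10.2 and 9.96 CPM in KO libraries, against 12.1, 12 and 10.6 CPM in control libraries (interval -0.45 to 0.01). LINC00460 had 3.86, 3.53 and 2.7 CPM in KO libraries, against 4.63, 3.39 and 5.31 CPM in control libraries, and overlapped through control replicate 2.

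LINC00707 averaged 5.63 ± 1.44 CPM in KO and 6.34 ± 0.677 CPM in control libraries, LINC00839 averaged 2.39 ± 0.237 CPM in KO and 2.82 ± 0.458 CPM in control libraries (SD, n = 3 each), and neither passed the test. LINC01138, studied in liver cancer, had 2.14, 2.49 and 5.28 CPM in KO libraries, against 2.65, 2.91 and 5.27 CPM in control libraries. The libraries numbered 3 were well above the others of their group in KO and in control cells, and the 95% interval of -1.03 to 0.75 does not exclude a halving. Of the same list, LINC01133, LINC00941 and LINC02381 had no count in any library, which allows up to 0.165 CPM in the shallowest, LINC00520, LINC00958 and LINC01705 had 3, 4 and 1 counts in all, LINC01503 had 28 and LINC01234 had 66. LINC01234 had 5, 8 and 2 counts in KO libraries, against 16, 14 and 21 counts in control libraries, and is no member. LINC00473 and LINC00704 are not listed under those names.

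**Figure D3:**
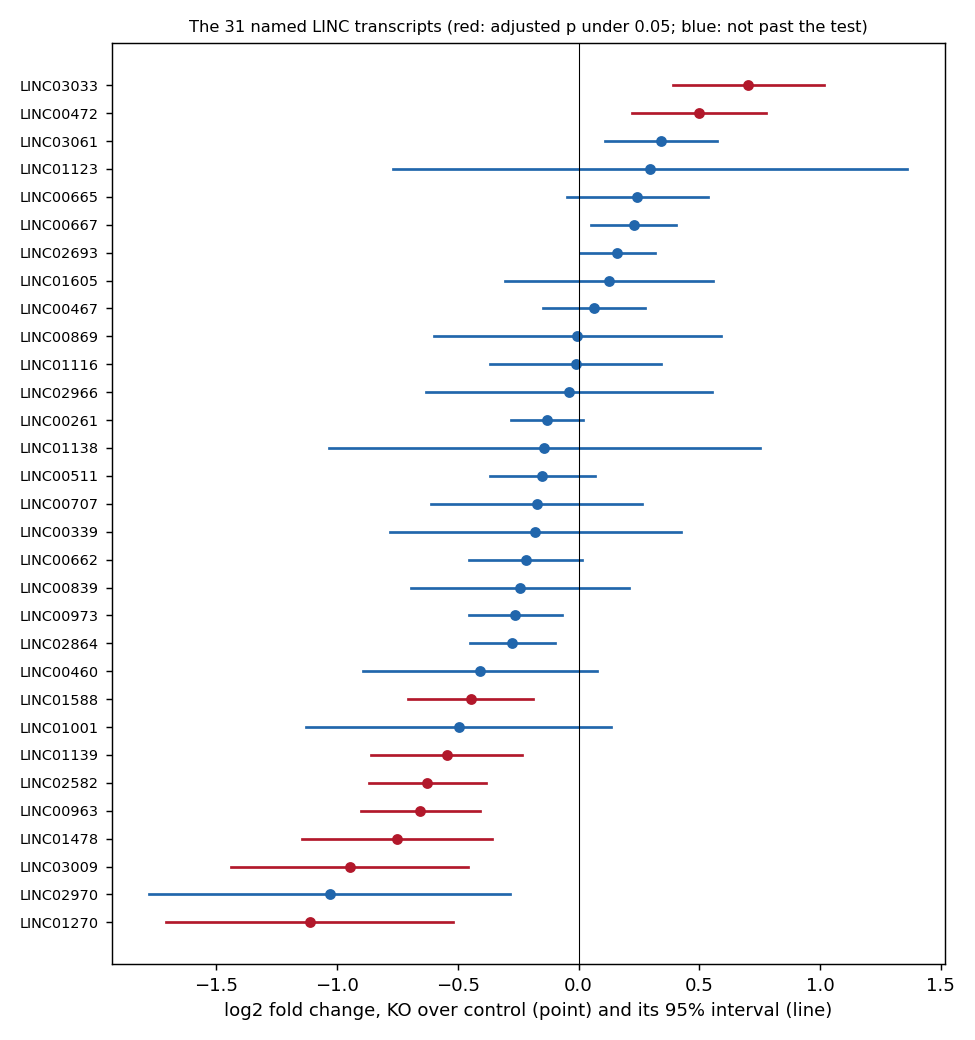
Log2 fold change of KO over control (points) with its 95% interval (lines) for the 31 LINC transcripts named by rule, the 9 called ones in red. Intervals range from narrow for LINC00261 (-0.28 to 0.02) to wide for LINC01123 (-0.77 to 1.36).

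At the edge of the rule, the members with the lowest totals were LINC01123 with 204 counts, LINC02966 with 206 and LINC01001 with 208, and the rows just outside were LINC00910 with 199, LINC02018 with 193 and LINC02475 with 189. LINC01123 averaged 1.89 ± 1.13 CPM in KO and 1.51 ± 0.761 CPM in control libraries, LINC02966 averaged 1.69 ± 0.179 CPM in KO and 1.73 ± 0.475 CPM in control libraries, and LINC01001 averaged 1.43 ± 0.453 CPM in KO and 2.02 ± 0.241 CPM in control libraries. Just outside, LINC00910 averaged 1.62 ± 0.162 CPM in KO and 1.70 ± 0.158 CPM in control libraries, LINC02018 averaged 1.34 ± 0.10 CPM in KO and 1.86 ± 0.566 CPM in control libraries, and LINC02475 averaged 1.39 ± 0.270 CPM in KO and 1.77 ± 0.268 CPM in control libraries (SD, n = 3 each throughout).

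Summed over the members, LINC transcripts took 115, 109 and 130 of every 100000 counts in KO libraries, against 119, 121 and 135 in control libraries. The groups overlapped, with means of 118 ± 10.8 in KO and 125 ± 8.45 in control libraries (SD, n = 3 each). Between libraries of the same number, which the labels do not pair, KO lay below control in all 3 cases, also without the mitochondrially encoded genes. Without the 3 most abundant members KO was again lower, but the libraries numbered 3 were nearly equal (88.5 in KO, 88.6 in control). No test was made on this sum. Without the 3 most abundant members the share was 79.8 ± 7.55 in KO and 81.9 ± 5.87 in control libraries. In bulk RNA, fewer cells expressing a transcript and less of it per cell cannot be told apart.

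The libraries numbered 3 had the highest summed share of LINC counts in KO and in control cells. Replicate 3 was the highest library of both groups for 44 members, 40% of the set beside 26.3% of all genes, and the lowest of both for 5 members, 4.55% beside 29%. These shares were not matched for depth, and the pattern was not particular to LINC names. Among other long noncoding RNAs, replicate 3 was also highest in both groups for NEAT1, NORAD, GAS5, DANCR, PVT1, CYTOR and MIR210HG. MIR22HG, DLEU2, ZFAS1, LINC-PINT, VPS9D1-AS1 and HIF1A-AS3 showed it too. MALAT1, TUG1, MIR222HG, LUCAT1, KCNQ1OT1, EPB41L4A-AS1, OIP5-AS1, FTX and JPX did not. The log2 ratio of replicate 3 to the mean of replicates 1 and 2 had a median of 0.20 in KO and 0.13 in control libraries over the members, beside 0.00 in KO and -0.02 in control libraries over all genes. Across the members the KO and control ratios had a Pearson correlation of 0.41 and a Spearman correlation of 0.36, a description over 110 transcripts that share the same 6 libraries. LINC01123 showed the largest such ratios, with 1.23, 1.25 and 3.19 CPM in KO libraries, against 1.18, 0.97 and 2.38 CPM in control libraries. LINC00324 did the reverse, with 3.05, 1.82 and 1.21 CPM in KO libraries, against 2.32, 3.50 and 2.04 CPM in control libraries. What sets the libraries numbered 3 apart was not tested.

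Spread between replicates was larger for the members than over all tested genes, with a median within-group coefficient of variation of 14.8% beside 9.09%. This comparison was not matched for depth. Of the 110 members, 20 had 1500 counts or more, against 9102 of the 14704 tested genes, and counting noise is larger at low counts. LINC02970, LINC00869 and LINC00339 varied most among members with 500 counts or more. LINC02970 had 6.69, 5.76 and 12 CPM in KO libraries, against 13.5, 13.8 and 22.4 CPM in control libraries, with replicate 3 high in both groups and no overlap. Its log2 fold change of -1.03 (SE 0.32) missed the test (adjusted p = 0.0938; 0.0211 to 0.24 over the 6 libraries left out, with a call only without KO replicate 3), and passed it with the block (1.23e-11), with DESeq2 (0.00287) and without both libraries numbered 3 (4.90e-07). LINC00869 had 3.96, 4.67 and 6.55 CPM in KO libraries, against 3.73, 4.53 and 6.89 CPM in control libraries, with replicate 3 highest in both groups. LINC00339 had 3.37, 3.69 and 6.55 CPM in KO libraries, against 4.11, 5.12 and 6.12 CPM in control libraries, and overlapped.

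**Figure D4:**
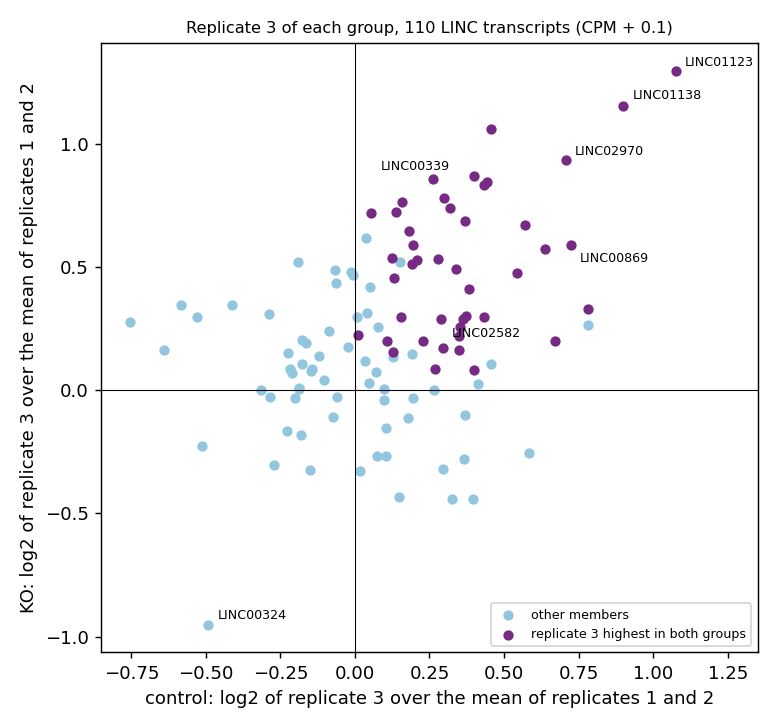
Log2 ratio of replicate 3 to the mean of replicates 1 and 2 (CPM + 0.1) in KO libraries (vertical) and control libraries (horizontal), 1 point per LINC transcript; purple marks the 44 for which replicate 3 was highest in both groups. The purple points fill the upper right, led by LINC01123 and LINC01138, and LINC00324 lies at the lower left.

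Protein-coding neighbours were compared because some LINC RNAs act on or share a promoter with the gene beside them. Within 50 kb of the gene body, 65 members had a RefSeq coding gene, 11 of them overlapping it, and for 41 the neighbour was itself tested. Of these neighbours, 5 were called, all lower in KO cells, 12.2% of the 41, beside 9.7% of all genes called in either direction and 6.42% called lower. In no pair did both pass the test. The log2 fold changes of member and neighbour had the same sign in 24 of 41 pairs, with a Pearson correlation of 0.29 and a Spearman correlation of 0.08 across pairs that all come from the same 6 libraries.

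SLCO4A1, an organic anion transporter whose gene starts 39062 bases from LINC02970 in the opposite direction, averaged 90.6 ± 12.4 CPM in KO and 264 ± 25.0 CPM in control libraries (SD, n = 3 each; log2 fold change -1.54, SE 0.11, adjusted p = 1.16e-04). No other called neighbour had as large a fold change. NT5E, the ecto-nucleotidase CD73, averaged 470 ± 44.4 CPM in KO and 658 ± 42.0 CPM in control libraries (adjusted p = 0.0094), and LINC02535 beside it averaged 2.07 ± 0.418 CPM in KO and 2.89 ± 0.205 CPM in control libraries (adjusted p = 0.188). FOXA2, 2356 bases from LINC00261, averaged 81.7 ± 3.05 CPM in KO and 98.0 ± 6.14 CPM in control libraries (log2 fold change -0.26, SE 0.07, adjusted p = 0.0400). CCRL2, an atypical chemokine receptor beside LINC02009, averaged 24.3 ± 0.387 CPM in KO and 29.9 ± 2.06 CPM in control libraries (adjusted p = 0.0422), and ANKRD9 beside LINC02323 averaged 26.1 ± 3.32 CPM in KO and 36.6 ± 2.19 CPM in control libraries (adjusted p = 0.0177).

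LINC03033 and its neighbour had opposite signs: PRKCH, a protein kinase C gene 19564 bases away on the same strand, averaged 3.48 ± 0.559 CPM in KO and 4.95 ± 0.381 CPM in control libraries (log2 fold change -0.51, SE 0.17, adjusted p = 0.0938). Among the closest pairs without overlap, LINC00205 lies 157 bases from POFUT2, which adds fucose to secreted proteins, and the pair points in opposite directions from a common start region. POFUT2 averaged 34.2 ± 3.30 CPM in KO and 41.5 ± 1.60 CPM in control libraries (adjusted p = 0.0754), while LINC00205 had a log2 fold change of -0.07. Members also neighbour each other. LINC00526 and LINC00667 start head to head 71 bases apart. KO minus control came to 0.39 (SE 0.24) for LINC00526 and 0.23 (SE 0.08) for LINC00667 on the log2 scale, and the ETS match printed above for LINC00667 is read from the other strand 47 bases before the start of LINC00526. LINC01117 and LINC01116, 145 bases apart near the HOXD genes, differed between groups by -0.23 (SE 0.16) and -0.01 (SE 0.15) on the log2 scale. None of these 4 members passed the test.

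**Figure D5:**
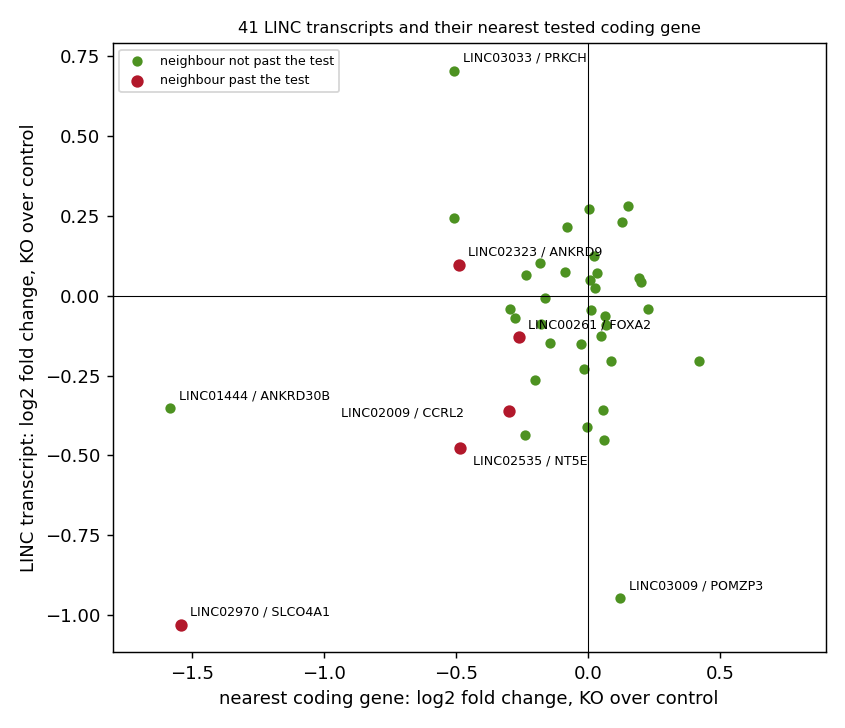
Log2 fold change of the nearest tested coding gene (horizontal) and of the LINC transcript (vertical) for 41 pairs; red points are neighbours past the test. LINC02970 with SLCO4A1 lies far at the lower left, and the other 4 red points have LINC transcripts between -0.48 and 0.10.

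By pattern over the 6 libraries, the genes most like LINC00963 were IL17RC (Pearson correlation of log2 CPM 0.999), RASSF4 (0.998) and the unnamed ENSG00000279118 (0.998). Those most like LINC02582 were FAM162A (0.998), DUSP4 (0.998) and ENSG00000287023 (0.997), and those most like LINC03033 were BLMH (0.994), NAPA (0.991) and EXOSC2 (0.991). They were picked as the top of 14704 genes over 6 libraries, so high values are built in. RASSF4 had 13.0, 11.1 and 13.4 CPM in KO libraries, against 34.6, 27.2 and 30.5 CPM in control libraries. FAM162A had 26.5, 27.2 and 32.9 CPM in KO libraries, against 42.1, 42.3 and 49.9 CPM in control libraries, with replicate 3 the highest of each group, as for LINC02582.

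Of all tested genes with 200 counts or more, 10.9% were called, 463 higher and 899 lower. Other classes of noncoding RNA at the same minimum, given without a test between classes, were called at 4.65% of 215 antisense genes (3 higher, 7 lower) and 3.80% of 79 divergent genes (all 3 lower). Small nucleolar RNA host genes had no call among 21, and microRNA host genes 3 of 22, all lower. Of 35 widely known long noncoding RNAs, 22 reached 200 counts and 3 were called. MIR210HG, the host of a microRNA induced by low oxygen, averaged 5.74 ± 1.19 CPM in KO and 19.1 ± 2.50 CPM in control libraries (SD, n = 3 each; log2 fold change -1.73, SE 0.16, adjusted p = 3.99e-04), a larger fold than any LINC member showed. LUCAT1 averaged 4.67 ± 0.401 CPM in KO and 9.88 ± 1.55 CPM in control libraries (adjusted p = 0.00298), and VPS9D1-AS1 averaged 22.9 ± 1.34 CPM in KO and 17.8 ± 1.33 CPM in control libraries (adjusted p = 0.0364).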

How the data were processed

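RNA of 6 MDA-MB-231 libraries, 3 KO and 3 control, was measured by poly(A)-selected, stranded RNA-seq, per the labels' protocols. The authors deposited raw counts of reads per gene (whole numbers); build hg38 and the tools STAR 2.7.9a, FastQC 0.11.9, R 4.1.1 and featureCounts are listed, per the submitters' processing notes. Annotation, strand setting and handling of multiply mapped reads are not stated, so overlapping, antisense and duplicated genes are uncertain. Columns were matched to samples by header name; 0 were left unassigned.

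From these counts, edgeR 4.0.16 (R 4.3.3, limma 3.58.1) with filterByExpr, TMM factors and a robust quasi-likelihood fit on group tested 14704 genes, with Benjamini-Hochberg adjustment over all of them and a threshold of 0.05. Treatment labels gave the groups and titles the replicate numbers. Alternatives were DESeq2 1.42.0, RLE factors, no filter, no robust estimation, a replicate block, libraries left out and other member minimums. The procedure was tested on simulated counts that held no shift of the libraries numbered 3, so that test does not cover its effect on the calls. Counting intervals and floors (3 counts) cover counting error only.

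Same-numbered KO and control libraries deviated together from their group means (r = 0.546, 0.450 and 0.828 over 10032 genes), and the labels name no shared batch. Replicates 1 and 2 correlated more across numbers (0.592 and 0.584) than within them (0.546 and 0.450). The values set the remaining replicate of each group apart from replicates 1 and 2. They do not show pairing by number, so the replicate block rests on the numbers in the titles alone. No 2 replicates agreed within sampling noise.

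Members, lists and tests were chosen with earlier results of these data known. Named members are those called, the 10 most abundant, the 3 on each side of the count minimum, a list studied in cancer and the 3 most variable of at least 500 counts; others are marked. Gene positions and promoter windows are from RefSeq (GRCh38.p14); exonic lengths are from GENCODE 29.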

Additional observations from a re-analysis of the deposited data

How the results depend on the processing

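Against 2 members called higher and 7 lower, no filter on low counts gave 4 and 11, the replicate block 5 and 18, and the fit without both libraries numbered 3 gave 3 and 17. Leaving out a library gave 0 to 3 higher and 1 to 10 lower. Over all genes, against 483 higher and 944 lower, the block gave 2522 and 2461, the fit without both libraries numbered 3 gave 1731 and 2023, and leaving out a library gave 136 to 777 higher and 436 to 964 lower. RLE factors and no robust estimation changed no member's call, member minimums of 100 and 500 counts gave 2 higher each and 8 and 6 lower, and every name starting with LINC gave 2 and 7. DESeq2 gave 3 and 8. The block ended none of the 9 calls. Among the 31 named members, the sign turned with a shift of more than 1 SE for 3 that were not called: LINC01123 without KO replicate 3 (-0.29, against 0.30 with all libraries; 0.80 without control replicate 3), LINC02966 without both libraries numbered 3 (0.29, against -0.04) and LINC00869 without control replicate 3 (0.29, and -0.22 without KO replicate 3, against -0.00). The summed share per 100000 counts without mitochondrially encoded genes was 122 ± 11.2 in KO and 129 ± 8.5 in control libraries. The cause of these shifts was not tested. Depth limits the 55 members under 500 counts, whose intervals reached a median of 0.53 to either side on the log2 scale.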

Other observations

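Markers of other cell types were low in both groups. Among leukocyte genes CD3E had no count, PTPRC had 0.21 to 0.42 CPM in KO and 0.28 to 0.54 CPM in control libraries, and LYZ had 1.29 to 1.82 CPM in KO and 5.77 to 6.25 CPM in control libraries. Of 4 endothelial markers CDH5 had no count, and the list summed to 5.78 to 8.46 CPM in KO and 9.73 to 11.0 CPM in control libraries. The 6 fibroblast markers summed to 11.9 to 13.9 CPM in KO and 13.2 to 13.5 CPM in control libraries. Their part in the LINC results was not tested. Mitochondrially encoded genes took 3.82%, 2.65% and 2.95% of counts in KO libraries, against 3.15%, 4.26% and 3.25% in control libraries.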
